A study of Mus musculus with 6 samples.

Results

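The genes of 8 secreted proteins with which the pancreas digests fat and nucleic acids were followed in sorted acinar cells of mice with and without experimental pancreatitis. They were chosen by name: the lipases Pnlip, Pnliprp1, Pnliprp2 and Cel, the lipase cofactor Clps, the phospholipase Pla2g1b, the ribonuclease Rnase1 and the deoxyribonuclease Dnase1. All 8 were found among the 21949 genes of the deposited table. The libraries labelled WT+Cerulein were 3, from mice injected with cerulein, a peptide that acts on the cholecystokinin receptor and drives acinar cells into pancreatitis. It was given 7 times a day on alternating days within a 3-day span, with 1 day left for recovery. The other group, labelled WT, held 3 libraries from mice without cerulein. All mice were adults with a CD1-enriched background. Both groups carried ElastaseCreER and ROSA26YFP: in these the elastase promoter drives an inducible Cre and recombined cells carry a yellow fluorescent reporter for life. Acinar cells were dissociated from the pancreas and isolated by flow sorting, and ribosomal RNA was removed before sequencing. The sources used here do not say whether the libraries of a group came from separate mice, so the tests measure only how far these samples vary, and part of that may be technical.

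Acinar cells store digestive enzymes in zymogen granules and release them into the duct after a meal. Pancreatic triglyceride lipase, the product of Pnlip, cleaves dietary triglycerides, and it needs colipase, the product of Clps, to hold on to fat droplets coated with bile salts. Carboxyl ester lipase, encoded by Cel, is activated by bile salts and takes cholesteryl esters and other esters, Pla2g1b cleaves phospholipids, and Rnase1 degrades dietary RNA.

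In WT cells these genes were among the most abundant of the table. Even when every other gene with a lost decimal mark was given its highest possible value, Cel ranked 5, Clps 6, Pnlip 7 and Rnase1 9 among 16297 detected genes by mean FPKM (fragments per kilobase of transcript, scaled to the depth of the library). Pnliprp1 ranked 18, Pla2g1b 22 and Pnliprp2 35. The summed FPKM of the 8 genes was 30910, 24569 and 18715 in WT+Cerulein libraries 1, 2 and 3, against 187338, 203984 and 188859 in WT libraries 1, 2 and 3. The mean sum was 24731 ± 6099 FPKM in WT+Cerulein and 193394 ± 9203 FPKM in WT (SD, n = 3 each), 7.82-fold higher in WT. These sums take Pnliprp2 at its highest possible values and Clps and Pla2g1b by their main transcripts. In bulk libraries, fewer cells that make these enzymes and less of their RNA per cell cannot be told apart.

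Pnlip, Pnliprp1 and Pnliprp2 lie side by side on the plus strand of chromosome 19 (build GRCm38, also called mm10), within the 125 kb from 58652498 to 58777534. Cel lies on chromosome 2 (28555795 to 28563403, minus strand), Clps on chromosome 17 (28558149 to 28560766, minus strand), Pla2g1b on chromosome 5 (115466262 to 115474722, plus strand), Rnase1 on chromosome 14 (51144998 to 51146785, minus strand) and Dnase1 on chromosome 16 (4036942 to 4040024, plus strand). In the GENCODE M21 annotation Cel overlaps Gm13381, Clps overlaps Mir6969, and Dnase1 overlaps Trap1 and Gm15879. The sources used here do not say whether counting used strand, so reads of these overlaps are uncertain.

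Enzyme promoters in acinar cells are a textbook target of the PTF1 complex, in which Ptf1a and an E protein sit on an E-box beside a site for Rbpj or Rbpjl. The 200 bases before the RefSeq start (GRCm38.p6) are shown for 4 genes: Pnlip (chr19:58670165-58670364, plus strand) and Pnliprp1 (chr19:58728687-58728886, plus strand), neighbours whose changes differed in size, and Cel (chr2:28563404-28563603, minus strand) and Rnase1 (chr14:51146768-51146967, minus strand), whose changes were close to that of Pnlip. Each runs 5′ to 3′ on the strand of its gene, and capitals mark the E-box CACCTG or its complement CAGGTG, the Rbpj core TTCCCA or its complement TGGGAA, and TATAAA read on the strand of the gene.
Pnlip: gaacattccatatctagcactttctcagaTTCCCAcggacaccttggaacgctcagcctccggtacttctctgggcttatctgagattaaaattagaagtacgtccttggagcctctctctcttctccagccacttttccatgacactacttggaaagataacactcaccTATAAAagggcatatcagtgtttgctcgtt
Pnliprp1: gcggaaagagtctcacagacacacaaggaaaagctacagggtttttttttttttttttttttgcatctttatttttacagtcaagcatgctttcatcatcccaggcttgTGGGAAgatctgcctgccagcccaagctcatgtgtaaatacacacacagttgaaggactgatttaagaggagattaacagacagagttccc
Cel: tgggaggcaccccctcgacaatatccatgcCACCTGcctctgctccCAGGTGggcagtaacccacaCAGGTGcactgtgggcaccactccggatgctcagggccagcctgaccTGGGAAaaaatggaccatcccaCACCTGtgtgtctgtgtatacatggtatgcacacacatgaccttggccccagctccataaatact
Rnase1: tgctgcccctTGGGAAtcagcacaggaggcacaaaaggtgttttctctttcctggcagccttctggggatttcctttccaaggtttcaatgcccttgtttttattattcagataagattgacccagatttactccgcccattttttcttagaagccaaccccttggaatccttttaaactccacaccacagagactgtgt
RefSeq promoters were matched for 7 of the 8 genes, and Clps was not among them. The E-box was present in 1 of the 7, Cel, which held it 4 times, and in 13.9% of all 32851 promoters of this length. The Rbpj core was present in 4 of the 7, the genes shown above, and in 17.3% of all promoters. TATAAA was present 30 bases before the start of Pnlip, and in 6.27% of all promoters. The RefSeq start of Pnlip lies inside the GENCODE gene, which begins farther upstream. A match of letters is a description of the window and not a site of binding.

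The deposited FPKM had passed through a spreadsheet that removed the decimal mark from many values under 1000, and these marks were put back where whole fragment counts and replicates allowed it. The values of Pnlip, Pnliprp1, Cel and Rnase1 and of the main transcripts of Clps and Pla2g1b were intact in all 6 libraries, so that they did not depend on this step. One FPKM of a 2000-base transcript stood for 23.1 to 34.0 fragments in WT+Cerulein libraries and for 6.45 to 8.09 fragments in WT libraries. Low levels were thus measured less precisely in WT. The number of fragments that FPKM was scaled to, worked out from these steps, was 12706756 to 18960106 in WT+Cerulein and 3501799 to 4465613 in WT. Over all their transcripts, 9116 genes restored in all libraries held a like number of fragments in both groups. It was 2925605 to 3209581 in WT+Cerulein and 2547525 to 3540908 in WT. Genes whose values were not matched to whole fragments, such as Clps, are not among the 9116. What made up the rest of the larger WT+Cerulein base was not tested.

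The sorted cells carried acinar transcripts in both groups, and other cell types were represented too. The summed FPKM of 7 restored acinar markers was 27563 to 50664 in WT+Cerulein libraries and 154134 to 159215 in WT libraries, and 6 of the 7 fell. Over all tested genes 7.4% were lower and 9.08% higher. Of 12 macrophage markers 5 were restored, with a sum of 13.5 to 39.9 FPKM in WT+Cerulein and 1.13 to 9.15 FPKM in WT. All 4 that could be tested rose. Among the markers that passed, the directions of the macrophage genes Cd68 and Csf1r and the acinar genes Ptf1a and Bhlha15 rest on placed marks. Of 10 fibroblast and matrix markers 7 were restored and tested, with a sum of 117 to 191 FPKM in WT+Cerulein and 0.879 to 124 FPKM in WT, and 1 of them, Postn, rose. WT library 1 stood apart in these genes: the collagen gene Col1a1 was at 47.1 FPKM there and at 0.899 and 0.117 FPKM in WT libraries 2 and 3. The endothelial gene Eng was at 14.3 FPKM in WT library 1 and at 0 in the other WT libraries. These WT library 1 values of Col1a1 and Eng rest on placed marks. The sum of the 6 endothelial markers was 3.50 to 4.39 FPKM in WT+Cerulein and 0 to 18.5 FPKM in WT. Among neutrophil markers Retnlg rose and was at 0 in all WT libraries, none of the 4 restored lymphocyte markers reached the filter of 1 FPKM, and no islet marker could be restored.

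Every measurable lipase, colipase and phospholipase gene, and Rnase1, was lower in every WT+Cerulein library than in any WT library, as were 16.2% of all tested genes. The fall was 10.2-fold for Rnase1, 9.73-fold for Pnlip, 9.52-fold for Cel and 7.18-fold for Clps. It was 4.08-fold for Pla2g1b, 3.35-fold for Pnliprp2 at its highest placement and 3.20-fold for Pnliprp1. These folds hold on the deposited FPKM scale and were smaller on most others. For Pnliprp1 the direction turned round when shares of restored fragments were compared, as given with the scalings. Only Pnlip, Pnliprp1, Cel and Rnase1 were compared by such shares. Expression was tested with limma on log2(FPKM + 1), with Benjamini-Hochberg adjustment over all 4297 genes that were restored and averaged at least 1 FPKM in a group. Of the 8 genes 5 entered this fit, and all 5 passed an adjusted p under 0.05 as lower, against 7.4% of all tested genes lower and 9.08% higher. All 5 also lay at a log2 fold change of -1.5 or lower, as did 3.79% of all tested genes. Their median log2 fold change was -3.25, against 0.08 over all tested genes.

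**Figure D1:**
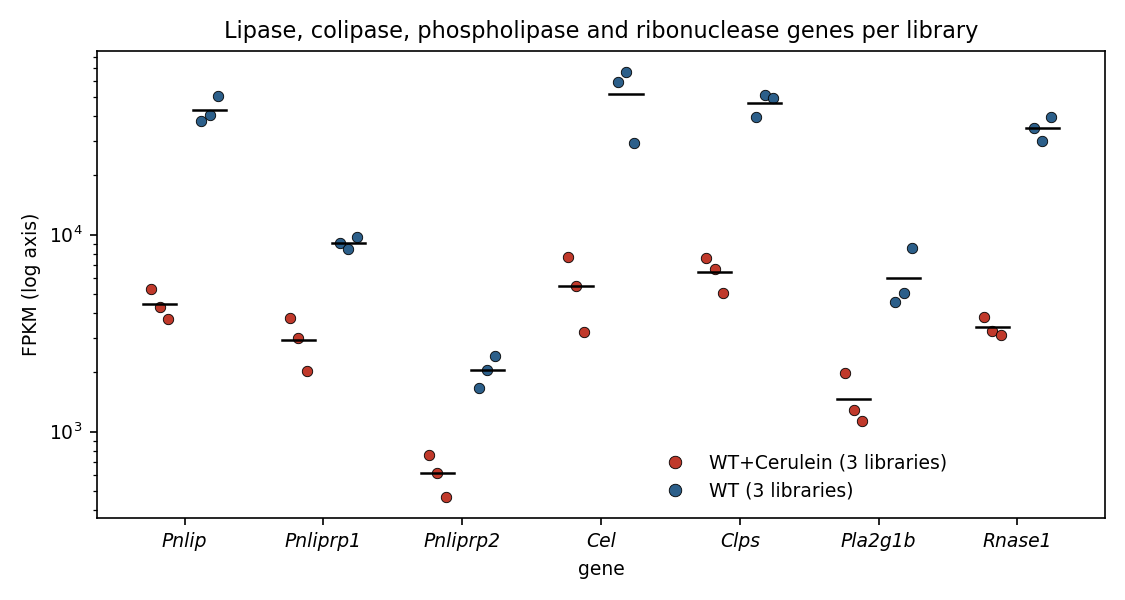
FPKM on a log axis for 7 genes, with one point per library, WT+Cerulein in red and WT in blue, and bars at the group means. Every red point lies below every blue point of the same gene, with the widest gap for Rnase1, where the lowest WT library was 7.81 times the highest WT+Cerulein library, and Pnliprp2 is drawn at its highest possible WT+Cerulein values.

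Pnlip stood at 5270, 4271 and 3712 FPKM in WT+Cerulein libraries 1, 2 and 3, and at 37662, 40591 and 50316 FPKM in WT libraries 1, 2 and 3. The groups were far apart, with the lowest WT library 7.15 times the highest WT+Cerulein library. Its log2 fold change was -3.28 (limma SE 0.32 and adjusted p = 1.88e-05), which placed it at rank 9 of the 4297 tested genes when these are ordered from the strongest fall. These values rested on 87595, 88181 and 90180 fragments in WT+Cerulein and on 175076, 215343 and 291898 fragments in WT.

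Colipase had one main transcript, with 7633, 6683 and 5067 FPKM in WT+Cerulein and 39610, 51044 and 49419 FPKM in WT. A second transcript had lost its mark in 5 of the 6 libraries and could add at most 375 FPKM. Summed over both transcripts, Clps fell with a log2 fold change of -2.84 (limma SE 0.32 and adjusted p = 6.23e-05), and by the main transcript alone it was -2.86. Its WT libraries did not overlap with the WT+Cerulein libraries at any placement.

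Cel was the most variable of these genes within groups. It had 7675, 5505 and 3199 FPKM in WT+Cerulein libraries, against 59880, 67009 and 29077 FPKM in WT libraries, where library 3 was low. The groups still did not overlap, and the log2 fold change was -3.25 (limma SE 0.42 and adjusted p = 0.000172). Without WT library 3 it was -3.63.

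The lipase-related gene Pnliprp1, whose protein resembles pancreatic lipase but is known for little activity on triglycerides, had 3771, 2977 and 2036 FPKM in WT+Cerulein and 9078, 8492 and 9720 FPKM in WT. Its WT libraries were closer together than those of Pnlip. It fell with a log2 fold change of -1.68 (limma SE 0.34 and adjusted p = 0.0043), at rank 123 of 4297 from the strongest fall. Its fragment counts were of like size in both groups, 54548 to 69003 in the deeper WT+Cerulein libraries and 46397 to 62117 in WT.

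Pnliprp2, which in addition to triglycerides takes galactolipids and phospholipids, had 1667, 2063 and 2424 FPKM in WT, with intact marks. All 3 WT+Cerulein values had lost their mark. Their highest possible values were 764, 619 and 467 FPKM, and the lowest possible ones were 100 times smaller. At the highest placement all 6 libraries held whole fragments when the transcript was taken as 1567 bases long, 5 fewer than annotated, with 13480, 13580 and 12056 fragments in WT+Cerulein. The first and second of these counts end in 0, so a placement 10 times lower was also whole, and the posteriors of 0.834, 0.84 and 0.987 did not all reach the 0.95 asked for. On the deposited FPKM scale Pnliprp2 was lower in WT+Cerulein at every placement. With the highest placement, which gives the smallest fall, its log2 fold change was -1.74 (limma SE 0.34 and adjusted p = 0.00338); this setting was added after the values had been seen, and 7.42% of all genes were called lower in it.

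Pla2g1b was measured by its main transcript, since 3 other transcripts had lost marks and their sum could not be restored. The main transcript had 1991, 1280 and 1129 FPKM in WT+Cerulein and 4541, 5046 and 8511 FPKM in WT, with library 3 the highest. Its log2 fold change was -2.03 (limma SE 0.37 and adjusted p = 0.00234), in a fit on main transcripts that called 7.42% of all genes lower. Over all placements of the other transcripts the log2 ratio of the group means lay between -2.24 and -1.42.

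Rnase1 had 3806, 3233 and 3104 FPKM in WT+Cerulein and 34900, 29740 and 39393 FPKM in WT. Among the genes with settled values it showed the strongest fall on the deposited scale, which leaves out Pnliprp2, with a log2 fold change of -3.35 (limma SE 0.31 and adjusted p = 1.39e-05) and rank 6 of 4297. The WT+Cerulein values of Rnase1 rested on 39325 to 46282 fragments, and the WT values on 97965 to 141455 fragments.

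Dnase1, an endonuclease known from bovine pancreas, was close to absent. It was at 0, 0.446 and 0.675 FPKM in WT+Cerulein libraries 1, 2 and 3, which stood for 0, 6 and 13 fragments, and at 0 in all WT libraries. A count of 0 in WT allows up to 3 fragments, or 0.612 to 0.761 FPKM per library. A single WT library thus could not tell 0 from 0.446 FPKM. No joint limit over the 3 WT libraries, all at 0, was worked out. Such limits cover counting error only. A cell with an exponent was taken as 0 in 1 transcript each of WT+Cerulein libraries 2 and 3. Read as written, these would give 1.84 and 0.701 FPKM and a WT+Cerulein mean of 0.846 FPKM. By either reading Dnase1 stayed below the filter of 1 FPKM and was not tested.

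Among the WT+Cerulein libraries, library 1 was the highest and library 3 the lowest in deposited FPKM for all 7 measurable genes, with Pnliprp2 at its highest placement. That order depended on the scale. As shares of the fragments on the 9116 genes, Rnase1 was at 1.34%, 1.28% and 1.44% in libraries 1, 2 and 3. Pnlip was at 2.99%, 2.75% and 2.81%, while Pnliprp1 and Cel kept the order. Macrophage markers, in FPKM, ran differently from the FPKM of the enzyme genes across the same libraries. In WT+Cerulein libraries 1, 2 and 3 Cd68 was at 4.79, 13.3 and 9.36 FPKM and Coro1a at 3.38, 11.3 and 12.7 FPKM. The part of these cells in the enzyme values was not tested. Without WT library 1, which carried the matrix and endothelial transcripts, the log2 fold changes were -3.37 for Pnlip, -1.68 for Pnliprp1, -3.10 for Cel, -2.95 for Clps and -3.34 for Rnase1, and all 5 passed.

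Since a few enzymes filled much of the WT libraries, the fold changes were recomputed under other scalings. Scaling by the median ratio over tested genes moved little, with -3.35 for Pnlip and -1.75 for Pnliprp1, and all 7 passed as lower, against 8.41% of all genes. Each library was then scaled to its summed FPKM of all restored genes outside the fixed enzyme list. This is called the enzyme-free scaling below, though only listed enzymes were left out. The median over all tested genes moved to 0.96, with 1.39% of them called lower and 68.2% higher. That sum leaves out genes that were not restored. It was 50820 to 57180 FPKM in WT+Cerulein and 125782 to 171729 FPKM in WT. In that setting Pnlip was at -1.88, Cel at -1.85, Rnase1 at -1.96 and Clps at -1.45 and all 4 passed, while Pnliprp1 was at -0.28 (limma adjusted p = 0.482), Pnliprp2 at -0.35 (limma adjusted p = 0.375) and Pla2g1b at -0.63 (limma adjusted p = 0.145) and none of these passed. That sum still held 2210010C04Rik, a gene outside the fixed enzyme list that was named after its values were seen, at 4523 to 5741 FPKM in WT+Cerulein and 39680 to 77404 FPKM in WT. It also held Lars2, a mitochondrial leucyl-tRNA synthetase gene likewise named after its values were seen, at 1312 to 3478 FPKM in WT+Cerulein and 12464 to 27538 FPKM in WT. The part of either gene in the scaled values was not tested. With libraries scaled to the restored genes outside the enzyme list that average under 1000 FPKM, the median of all genes was 0.32. This setting was added after those values were seen. All 7 passed as lower, against 5.13% of all genes, with -2.97 for Pnlip, -1.36 for Pnliprp1, -1.43 for Pnliprp2 and -1.71 for Pla2g1b.

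Shares of the fragments on those 9116 genes, which leave the FPKM base out, moved less and are given without a test. The FPKM base was 4.34 to 5.91 times these fragments in WT+Cerulein and 1.15 to 1.45 times in WT. The part left out of the shares thus differed between groups, and its effect on them was not tested. Pnlip held 2.85% ± 0.128 of these fragments in WT+Cerulein and 7.48% ± 1.79 in WT (SD, n = 3 each), 2.63-fold higher in WT. Cel was 2.55-fold and Rnase1 2.80-fold higher in WT on this scale. Pnliprp1 turned round, with 2.06% ± 0.333 in WT+Cerulein and 1.75% ± 0.317 in WT, 1.18-fold higher in WT+Cerulein, and its groups overlapped. Pnliprp2, Clps and Pla2g1b were not compared on this scale, so their direction on it is not known.

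**Figure D2:**
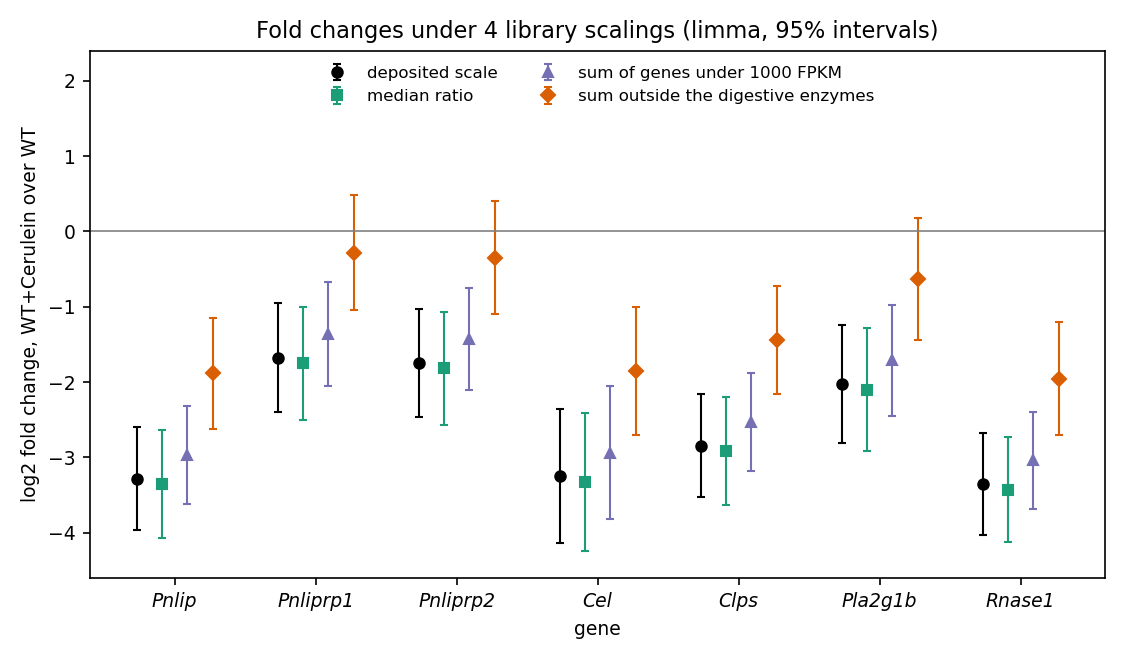
Log2 fold change of WT+Cerulein over WT for 7 genes under 4 library scalings, with 95% intervals from limma. Pnlip, Cel, Clps and Rnase1 stay below 0 under all 4 scalings. The intervals of Pnliprp1, Pnliprp2 and Pla2g1b reach above 0 only under the scaling to all restored genes outside the enzyme list.

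A ratio of 2 genes within a library does not depend on its scaling. Pnliprp1 was at 71.6%, 69.7% and 54.8% of the Pnlip FPKM in WT+Cerulein libraries 1, 2 and 3, and at 24.1%, 20.9% and 19.3% in WT libraries 1, 2 and 3. The groups did not overlap, and the ratio was 3.04-fold higher in WT+Cerulein. Its two-sided exact permutation p was 0.1, the smallest that 3 against 3 libraries allow, and 0.2 after adjustment over the 4 ratios tested. Clps to Pnlip was also higher, by 1.34-fold, at 145%, 156% and 137% in WT+Cerulein and 105%, 126% and 98.2% in WT, with the same exact p of 0.1. The ratios of Cel and Rnase1 overlapped between groups: Cel was at 86.2% to 146% of Pnlip in WT+Cerulein and at 57.8% to 165% in WT, and Rnase1 was at 72.2% to 83.6% in WT+Cerulein and at 73.3% to 92.7% in WT. Their exact permutation p were 1 and 0.6.

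Pnliprp2 and Pla2g1b are set against Pnlip without a test, since their gene sums were not restored. Pnliprp2 at its highest placement was at 14.5%, 14.5% and 12.6% of Pnlip in WT+Cerulein, which are upper limits, and at 4.43%, 5.08% and 4.82% in WT, so whether its ratio was higher depends on that placement. The main transcript of Pla2g1b was at 37.8%, 29.96% and 30.4% of Pnlip in WT+Cerulein and at 12.1%, 12.4% and 16.9% in WT. In FPKM, Pnlip and Cel headed the 4 lipases in both groups, but the gap between Pnlip and Pnliprp1 was narrower in WT+Cerulein.

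**Figure D3:**
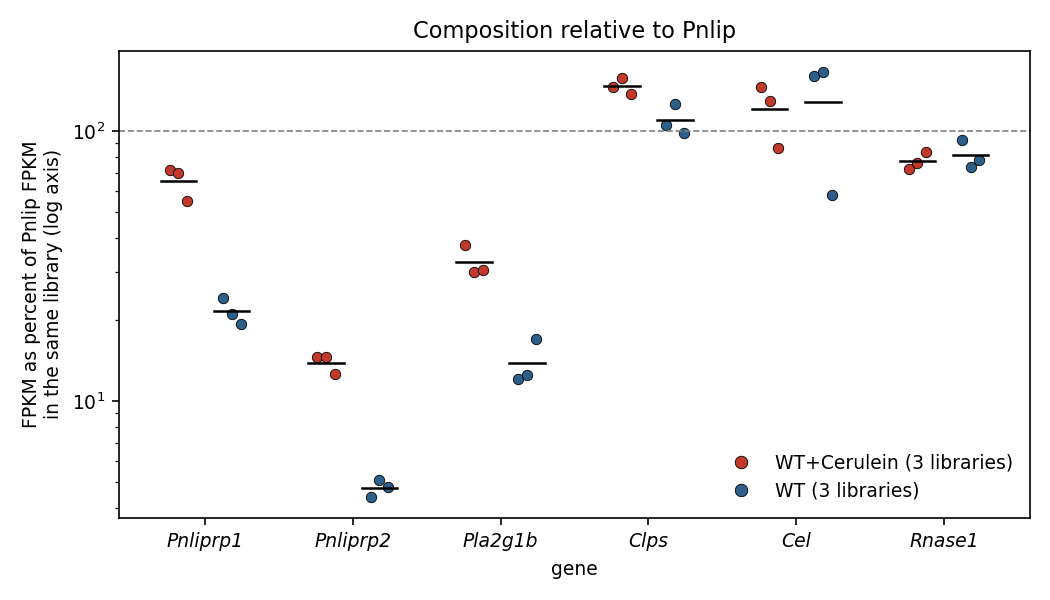
FPKM of 6 genes as a percentage of the Pnlip FPKM of the same library, on a log axis, with WT+Cerulein in red, WT in blue and bars at the group means. Pnliprp1, Pla2g1b and Clps lie higher in WT+Cerulein without overlap, as does Pnliprp2 where it is drawn at its upper limit in WT+Cerulein, while the points of Cel and Rnase1 overlap between groups.

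Other genes of digestion and of fat and nucleic acid handling were counted in lists. Of 22 other digestive enzymes 18 were tested, with 12 that fell, 1 that rose and 5 short of the threshold, and their median log2 fold change was -1.80, where 7.4% of all genes were lower and 9.08% higher. Under the scaling to all restored genes outside the enzyme list 6 were lower and 3 higher, with a median of -0.40. There 1.39% of all genes were lower and 68.2% higher. The strongest falls were those of Amy2a5, a pancreatic amylase copy (-3.30, limma adjusted p = 0.00462), and Cela2a, an elastase (-2.98, limma adjusted p = 0.000106). Reads of the near-identical amylase copies could have been split between them, so Amy2a5 is uncertain. The direction of Amy2a5 also rests on placed marks. The gene that rose was the trypsinogen Prss3 (2.28, limma adjusted p = 0.000395), which also has near-identical copies.

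Among 12 transcription factors of enzyme genes 9 were tested, of which 4 fell and none rose, and the median was -0.98. Over all tested genes 7.4% were lower and 9.08% higher. Bhlha15, which drives the secretory apparatus and is also called Mist1, was at 15.5, 4.60 and 5.61 FPKM in WT+Cerulein and at 59.1, 97.5 and 64.9 FPKM in WT, with a log2 fold change of -3.11 (limma adjusted p = 0.000196). Ptf1a, the DNA-binding subunit of PTF1, was at 14.0, 9.05 and 11.6 FPKM in WT+Cerulein and at 41.7, 59.9 and 31.4 FPKM in WT, with -1.83 (limma adjusted p = 0.00234). These values rest on restored marks. Under the scaling to all restored genes outside the enzyme list the median of the 9 factors was 0.31, with 1 lower and 3 higher. Over all genes the median in that scaling was 0.96, with 68.2% higher. There Bhlha15 was at -1.79 and still passed, while Ptf1a was at -0.49 (limma adjusted p = 0.171).

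Other lipases and phospholipases moved in both directions on the deposited scale. Of 34 listed, with their helper genes, 8 were tested, of which 2 rose and 1 fell. Over all genes 9.08% were higher and 7.4% lower. The median of the 8 was 0.08, which is also that of all genes. Under the enzyme-free scaling 6 of 9 tested were higher and 1 lower, where 68.2% of all genes were higher and 1.39% lower. The median of the 9 was 0.98, against 0.96 over all genes. Lipoprotein lipase, Lpl, fell, with a direction that rests on placed marks. It was at 4.82, 3.50 and 3.14 FPKM in WT+Cerulein and at 41.9, 32.2 and 20.9 FPKM in WT (log2 fold change -2.72, limma adjusted p = 0.00011). Pla2g7, a phospholipase secreted by macrophages, rose with a log2 fold change of 2.08 (limma adjusted p = 0.0215), and the lysosomal acid lipase Lipa rose with 1.38 (limma adjusted p = 0.0173), in the libraries in which the macrophage markers rose; the part of those cells in these 2 values was not tested. Clpsl1 and Clpsl2, relatives of colipase, are not analysed here.

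Of 27 other nucleases and inhibitors only 4 could be tested. The DNA exonuclease Trex1 rose (log2 fold change 1.64, limma adjusted p = 0.00549), as did Dnase1l1, a relative of Dnase1 (1.58, limma adjusted p = 0.00721), and 2 did not pass, where 9.08% of all genes were higher. The direction of Trex1 rests on placed marks, while that of Dnase1l1 held at every placement. Under the enzyme-free scaling all 4 were higher, as were 68.2% of all genes. Rnh1, the cytosolic inhibitor of Rnase1, could not be restored, and its possible values, 4.2003 to 683 FPKM in WT+Cerulein and 3.67 to 990 FPKM in WT, left its direction undecided. Of 16 genes of fat handling 4 were tested, and 1 rose, the lipid droplet coat gene Plin2, with 7.51, 15.1 and 11.4 FPKM in WT+Cerulein and 0.804, 3.72 and 0.263 FPKM in WT (log2 fold change 2.43, limma adjusted p = 0.00342). The direction of Plin2 rests on placed marks. Under the enzyme-free scaling 3 of the 4 fat handling genes were higher.

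**Figure D4:**
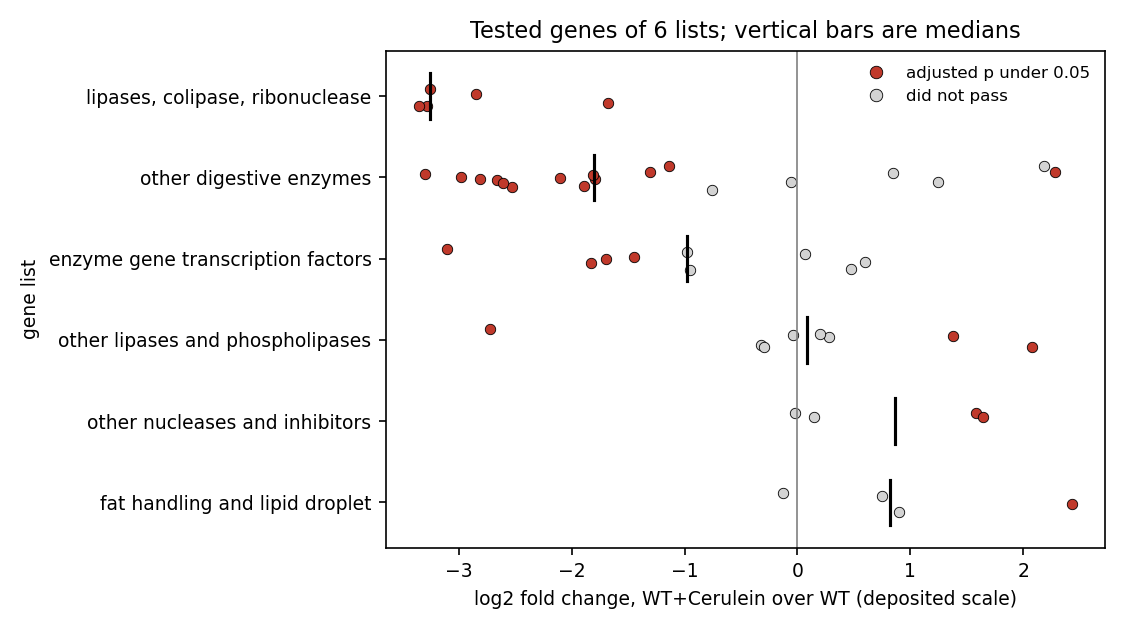
Log2 fold change of WT+Cerulein over WT on the deposited scale for the tested genes of 6 lists, 1 point per gene, red where the limma adjusted p was under 0.05, with a bar at each median. The 5 tested genes of the first row all lie below -1.5. The other digestive enzymes spread on both sides of 0 with a median of -1.80. Among them Amy2a1 and Amy2a3, which did not pass, lie above 0 though their mean FPKM was lower in WT+Cerulein, with WT library 3 at 0 FPKM. The last 3 lists have medians at or above 0.08.

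The genes most like the 5 tested ones were sought by the root mean square difference between log2(FPKM + 1) profiles, each centred on its own mean over the 6 libraries, among 687 other tested genes that average at least 10 FPKM. The closest were Gjb1, a gap junction gene (difference of 0.191), the carboxypeptidase Cpa1 (0.194), Fam46c (0.211), Cela2a (0.240) and Gp2, a zymogen granule membrane gene (0.245). Gjb1 was at 11.3, 7.85 and 5.47 FPKM in WT+Cerulein and at 70.3, 53.1 and 49.9 FPKM in WT. Among the 5 tested genes themselves, Clps was closest to their mean profile (0.115) and Pnliprp1 farthest from it (0.610).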

How the data were processed

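Per the file header and name, the authors deposited FPKM per transcript for 3 WT+Cerulein and 3 WT libraries. Per the submitters' processing notes, fastp, HISAT2, featureCounts and DESeq2 were used with mm10; for versions and for the tool that gave FPKM, nothing is stated in the sources used here. The deposited values are not plain FPKM but another unit: a spreadsheet had removed the decimal mark from 18.0% to 21.4% of transcripts per library, so that a 6-digit value under 1000 has 3 possible readings. The 58846 cells with an exponent were taken as 0: 8405 plain decimals lie from 0.0001 to under 0.001 and none in the 2 decades below, so an exponent was taken to mark a smaller value that lost its mark.

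Each reading was scored by whether it gives whole fragments, from FPKM and the GENCODE M21 transcript length (matched for 99.1% of 50660 transcripts), and by its distance to the other replicates (SD 0.6 on the log2 scale, with 5% weight on an SD of 3). A gene was kept where the posterior reached 0.95 in all libraries: 10197 of 16297 detected genes, 5324 of them without a lost mark. When the marks of 206 intact values were hidden, each in turn, 115 were placed and all 115 were right. The other cells of the gene stayed as deposited, so the check was easier than a gene with marks lost in several libraries. Placement favours genes with similar replicates, so p-values may be too small. The planned test assumed plain FPKM and was run on the restored values.

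Gene sums were tested with limma 3.58.1 (R 4.3.3, trend and robust) on log2(FPKM + 1), with a mean of at least 1 FPKM in a group, which left 4297 genes, Benjamini-Hochberg adjustment over all of them and a threshold of 0.05. A fold change on that scale understates the change of low genes. Pnliprp2 and Pla2g1b could not be restored as gene sums and were fitted at the highest placement and by the main transcript. Ratios to Pnlip used two-sided exact permutation tests. Depth per library is known from fragments per FPKM; the steps were tested on simulated data. The 8 genes, the lists and the tests were chosen with earlier results of these data known. All 8 genes are named; of each list, at most the 2 strongest rises and falls past the threshold are named, with Rnh1, Clpsl1 and Clpsl2 whatever their value. Alternatives covered pseudocounts, filters, scalings, placement, moderation, the replicate block and leaving out each library. The result of the duct marker list is not reported here.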

Additional observations from a re-analysis of the deposited data

How the results depend on the processing

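The calls of Pnlip, Cel, Clps and Rnase1 as lower held under each of the 19 alternatives run, with log2 fold changes of -3.42 to -1.88 for Pnlip, -3.63 to -1.85 for Cel, -2.96 to -1.45 for Clps and -3.46 to -1.96 for Rnase1. Pnliprp1 at -0.28, Pla2g1b at -0.63 and Pnliprp2 at -0.35 kept their sign but lost the call under the scaling to all restored genes outside the enzyme list. They kept the call in every other alternative run. Leaving out 1 library at a time gave -1.88 to -1.44 for Pnliprp1, -2.27 to -1.75 for Pla2g1b and -1.91 to -1.56 for Pnliprp2. Pla2g1b and Pnliprp2 have no value at the posterior of 0.99 or the replicate spread of 1.5, which do not enter them.

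Counts over all genes moved more than these calls. The 390 genes higher and 318 lower became 188 and 155 with no filter. They became 3340 and 68 under the scaling to all restored genes outside the enzyme list, and 46 and 43 of 2163 tested with a replicate spread of 1.5. The higher count was 169 with a filter of 5 FPKM (327 lower), 704 when scaled to genes under 1000 FPKM (224 lower) and 253 with a posterior of 0.99. The share of calls that are higher was 55.1%, against 98.0%, 75.9% and 34.1% under the enzyme-free scaling, the scaling to genes under 1000 FPKM and the filter of 5 FPKM. Leaving out 1 library gave 151 to 632 higher and 148 to 475 lower: 197 and 170 without WT+Cerulein library 2, 151 and 148 without WT+Cerulein library 3, 632 and 475 without WT library 1, and 185 and 198 without WT library 2. The cause was not tested.

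The ratio of Cel to Pnlip, a log2 difference of 0.031 that was not called, ran from -0.46 without WT library 3 to 0.29, and was -0.12 without WT+Cerulein library 1 and -0.04 without WT+Cerulein library 2. That of Rnase1 ran from -0.14 to 0.025, the last without WT library 1. With 2 libraries left in a group, an exact test of a ratio cannot pass. With the replicate block, 408 genes were higher and 386 lower, and the log2 fold changes of Pnlip (-3.28), Pnliprp1 (-1.68), Pnliprp2 (-1.74), Cel (-3.25), Clps (-2.84), Pla2g1b (-2.03) and Rnase1 (-3.35) kept their calls. Deviations of same-numbered libraries correlated at 0.16, 0.15 and -0.03, so the numbers were not taken to pair the samples. The WT libraries, with fewer fragments per FPKM, limit what can be said of genes near 1 FPKM.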
